A study of Homo sapiens with 18 samples.

Results

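Ribosome biogenesis was described here through 50 genes that build the ribosome, taken by gene symbol from a table of 19901 genes. All 50 members passed the filter on low counts and stood among the 15475 genes tested. Of these members, 22 are the genes that the study itself gathered under its enriched ribosome biogenesis pathway in Detroit 562. They were therefore picked on these same libraries and are not independent evidence of their direction, so they are counted apart from the other 28. Those 28 are not free of selection either, since members were chosen with earlier results of these data known. Any of them that belongs to the study's pathway had also missed its thresholds for a higher call on these libraries.

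The libraries came from established cell lines of head and neck squamous cell carcinoma (HNSCC), namely Detroit 562, which was derived from a metastasis of a pharyngeal tumor, FaDu, from a primary tumor of the hypopharynx, and SCC-9, from a primary tumor of the tongue. Each line was left untreated or received 50 ng/mL of hepatocyte growth factor (HGF), the ligand of the Met receptor tyrosine kinase, with 3 libraries per line and treatment and 18 in all. The treatment lasted 16 h by the labels of the samples and by the study's methods for sequencing, whereas the entry for the series states 48 h. Only SCC-9 was grown with hydrocortisone, so that line and medium cannot be told apart wherever SCC-9 is set against another line, and each tumor site is represented by 1 line. Libraries held 35304770 to 44003970 counts, with 0.836% to 2.43% of counts on mitochondrial genes over all lines. All 6 epithelial and squamous marker genes exceeded 10 counts in every library. KRT14 was low in Detroit 562, at 30 to 52 counts, against 8493 to 21172 in FaDu and 89695 to 133666 in SCC-9. The 4 lymphoid and myeloid markers together reached at most 10.5 cpm, that is, counts scaled to the size of the library. Among them CD14 had 120 to 239 counts in FaDu and 282 to 413 in SCC-9. The 2 endothelial markers summed to at most 3.40 cpm, and the 3 fibroblast markers to at most 102 cpm in SCC-9, 53.6 in Detroit 562 and 6.74 in FaDu. Of the fibroblast markers, PDGFRB had 10 counts or fewer in every library, whereas COL1A1 had at least 140 in every library. COL1A2 had 136 to 1396 counts in Detroit 562, 292 to 465 in SCC-9 and at most 5 in FaDu.

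Ribosomes are assembled in the nucleolus, where RNA polymerase I transcribes the long precursor of the ribosomal RNAs. Small nucleolar ribonucleoproteins (snoRNPs) modify this precursor, the small subunit processome and later factors fold and cut its part for the 40S subunit, and a separate set of assembly factors builds the 60S subunit. Growth factor signaling and the transcription factor MYC are known to raise the expression of many of these genes in dividing cells.

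HGF was accompanied by a shift of nearly the whole set in Detroit 562. All 50 members had a positive log2 fold change in that line, from 0.06 for NHP2 to 0.75 for RRP9, with a median of 0.44 on the log2 scale, whereas the median of all genes tested was -0.01. A gene was called when its adjusted p was below 0.1 and its absolute log2 fold change was at least 0.4, the thresholds of the study. Under this rule 36 of 50 members were called higher with HGF, against 6.16% of all genes tested, and 0 were called lower, against 11.7% of all genes tested. The 36 comprised 22 of the 22 genes of the study's own list and 14 of the other 28. With replicate number as a block, which pairs each HGF library with the control of the same number, 37 members were called higher, against 7.13% of all genes, and the added member was NOB1.

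The 0.4 limit divided a set of genes with similar responses. With the adjusted p alone, 47 of 50 members passed in Detroit 562, all of them higher with HGF, against 16.9% of all genes tested that were higher at that threshold, and the remaining members were POLR1C, UBTF and NHP2. In the blocked fit 48 members passed, against 26.3% of all genes. RIOK1, which was called, had a log2 fold change of 0.41, and NOB1, which was not, had 0.396. Other measures moved with HGF in this line. The mitochondrial share of counts was 1.45%, 1.51% and 1.84% in controls and 1.06%, 0.837% and 1.19% with HGF, without overlap. The fibroblast markers summed to 28.7 to 53.6 cpm in controls and 13.9 to 25.9 cpm with HGF. Among them COL1A1 had 634 to 903 counts in controls and 356 to 465 with HGF. COL1A2 had 471 to 1396 and 136 to 649, and PDGFRB had 0 in all 6 libraries. The epithelial markers summed to 2350 to 3730 cpm in controls and 1450 to 2410 cpm with HGF. Their part in the shift of the members was not tested. Counts are relative to the rest of each library, so that a change in total RNA per cell cannot be told apart from none.

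**Figure D1:**
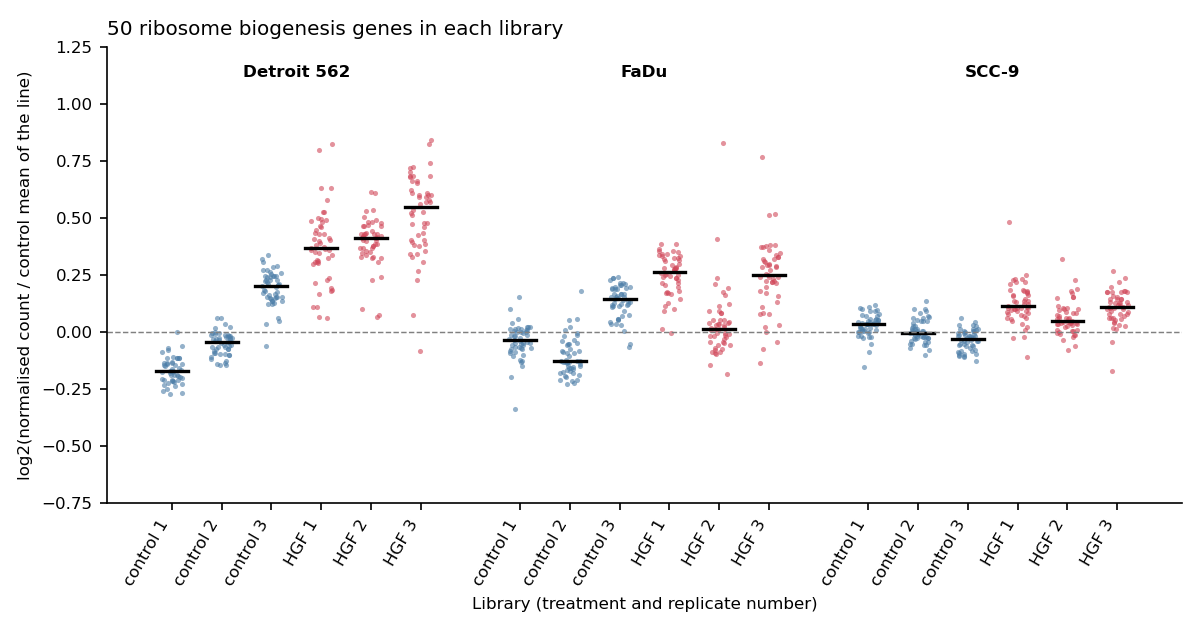
Each point is 1 of the 50 members in 1 library, plotted on the y axis as the log2 ratio of its normalised count to the control mean of the same line, with control libraries in blue, HGF libraries in red and the median over members as a black line. In Detroit 562 the medians of the HGF libraries lie at 0.37, 0.41 and 0.55 and those of the controls at -0.17, -0.04 and 0.20. In FaDu they lie at 0.26, 0.01 and 0.25 with HGF and at -0.04, -0.13 and 0.15 in controls. In SCC-9 they lie at 0.11, 0.05 and 0.11 with HGF and at 0.03, -0.01 and -0.03 in controls. The clouds of single points overlap between treatments in all 3 lines.

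The promoters of 3 members are printed because the set moved together in Detroit 562. CACGTG, the E-box sequence that MYC and its partner MAX bind, was searched in the 300 bases from 250 before to 50 after each gene start (RefSeq, GRCh38.p14), and as a palindrome it reads the same on both strands. Among the members with an entry in the table, which lacks BOP1, POP1, TCOF1, NOP58 and RRP12, the promoters of the 2 with the largest Detroit 562 response that hold it, and of the 1 with the largest response that does not, are given 5′ to 3′ on the strand of the gene, with CACGTG in capitals. RRP9 lies on the minus strand (chr3:51941855-51942154), and PWP2 (chr21:44107149-44107448) and POLR1B (chr2:112541786-112542085) on the plus strand.
RRP9: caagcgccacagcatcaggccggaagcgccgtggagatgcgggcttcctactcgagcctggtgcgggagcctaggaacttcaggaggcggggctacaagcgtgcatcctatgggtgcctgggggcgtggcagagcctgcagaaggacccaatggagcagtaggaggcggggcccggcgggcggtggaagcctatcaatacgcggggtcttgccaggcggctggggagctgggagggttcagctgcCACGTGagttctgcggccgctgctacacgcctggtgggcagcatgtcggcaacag
PWP2: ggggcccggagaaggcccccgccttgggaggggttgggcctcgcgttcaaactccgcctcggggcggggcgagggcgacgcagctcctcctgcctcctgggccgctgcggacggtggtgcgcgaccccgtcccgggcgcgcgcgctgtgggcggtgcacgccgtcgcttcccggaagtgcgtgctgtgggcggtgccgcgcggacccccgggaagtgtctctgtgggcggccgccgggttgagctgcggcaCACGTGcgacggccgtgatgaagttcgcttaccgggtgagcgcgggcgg
POLR1B: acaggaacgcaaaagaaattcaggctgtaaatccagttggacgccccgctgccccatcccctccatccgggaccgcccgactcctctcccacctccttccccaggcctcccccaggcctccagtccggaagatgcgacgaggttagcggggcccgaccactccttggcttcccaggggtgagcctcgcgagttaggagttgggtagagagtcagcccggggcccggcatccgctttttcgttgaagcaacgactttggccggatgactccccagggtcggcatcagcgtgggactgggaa

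The table held promoters for 45 of 50 members, 8 of them with more than 1 start. CACGTG was present in a promoter of 20 of these 45 members (44.4%). It was present in 12.3% of the 11487 tested genes with an entry and in 7.26% of all 35116 promoters of this length in the table. Among members outside the study's list 11 of 25 held it, and among those on the list 9 of 20. Of 24 occurrences in members, 20 began within 50 bases of the gene start. In RRP9 the motif began 5 bases before the start and in PWP2 1 base after it. The median Detroit 562 log2 fold change was 0.48 for the 20 members with the motif, 16 of which were called. It was 0.42 for the 25 without it, 16 of which were also called, and 6.16% of all genes tested were called higher. Both counts include genes of the study's list, 9 of them with the motif, which were picked as called on these libraries. A match to these letters is a description of the sequence, and binding was not measured.

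The genes of RNA polymerase I transcription had Detroit 562 responses from 0.09 to 0.54. Of the 6 members, POLR1B and TCOF1 were called higher in Detroit 562, against 6.16% of all genes tested, and the median log2 fold change was 0.29. TCOF1 is on the study's own list. POLR1B (chr2:112541915-112577150), the second largest subunit of the polymerase, had normalised counts of 2382, 2650 and 3349 in Detroit 562 control libraries and 3766, 3899 and 4544 with HGF. All 3 HGF libraries lay above all 3 controls, and the gene rose by 0.54 on the log2 scale (SE 0.121, adjusted p = 0.0054). TCOF1, the treacle protein that links the polymerase to ribosomal DNA, rose by 0.47 (SE 0.0845, adjusted p = 0.00197). RRN3, which recruits the polymerase to the promoter, and the large subunit POLR1A passed the adjusted p at 0.32 and 0.27 without reaching 0.4. The subunit POLR1C, which RNA polymerase III also uses, stood at 0.19 (adjusted p = 0.284).

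UBTF, the factor that binds and opens ribosomal DNA, had the lowest value of this group. Its counts were 4582, 4908 and 5056 in Detroit 562 controls and 5229, 5100 and 5101 with HGF. The 2 groups did not overlap, but the log2 fold change was 0.09 (SE 0.0771, adjusted p = 0.445). In SCC-9 UBTF had 4533, 4533 and 4502 counts without HGF and 4189, 4278 and 4013 with it, a log2 fold change of -0.12 that did not pass the test. UBTF was thus the member with the lowest response in SCC-9, where the HGF libraries lay below the controls.

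Among the snoRNP proteins, 1 of 3 members of the box C/D particles, which guide methylation of the ribosomal RNA, was called in Detroit 562. Of the 4 members of the box H/ACA particles, which guide pseudouridylation, 1 was called. The called members, NOP56 and DKC1, are both on the study's own list, and 6.16% of all genes tested were called higher. NOP56, a core box C/D protein, went from 6903, 8224 and 9891 counts to 11006, 11254 and 11570 and rose by 0.44 (SE 0.121, adjusted p = 0.0161). Its partner NOP58 went from 4379, 5005 and 5416 to 5726, 6440 and 6429, at 0.33 (SE 0.0896, adjusted p = 0.0148). The methyltransferase FBL had a log2 fold change of 0.37 with an adjusted p of 0.00136. In all 3 genes the HGF libraries lay above the controls, and what separated them was the 0.4 limit.

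DKC1, the pseudouridine synthase of the box H/ACA particles, rose by 0.48 (SE 0.112, adjusted p = 0.00677), with 7359, 8205 and 9939 counts in Detroit 562 controls and 11291, 11453 and 12792 with HGF. GAR1 and NOP10 passed the adjusted p at 0.37 and 0.30. NHP2, the fourth core protein of the same particle, had 2463, 2574 and 2362 counts without HGF and 2764, 2639 and 2326 with it. The treatments overlapped for NHP2, the estimate was 0.06 (SE 0.0718, adjusted p = 0.551), and the gene was lower with HGF in the replicate 3 pair. Its estimate was -0.04 in FaDu and in SCC-9 alike, whereas DKC1, GAR1 and NOP10 had positive estimates in all 3 lines.

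The small subunit processome, the large assembly on the precursor from which the 40S subunit is made, contributed 14 of its 17 members to the calls, with a median of 0.44. Of the called members only RRP9, NOP14 and UTP20 are outside the study's own list. Over all genes tested 6.16% were called higher. RRP9 (chr3:51933430-51941941), a protein of the U3 snoRNP, had the largest response of all members. Its counts were 1162, 1264 and 1768 in Detroit 562 controls and 2431, 2141 and 2476 with HGF. The HGF mean was 2350 ± 182 against 1398 ± 325 (SD, n = 3), a 1.68-fold difference at 0.75 on the log2 scale (SE 0.131, adjusted p = 0.00163). The groups were separate, although the difference within pairs ranged from 1.06 in pair 1 through 0.76 in pair 2 to 0.49 in pair 3.

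PWP2 followed at 0.58 (SE 0.115, adjusted p = 0.0031), with 2668, 2828 and 3577 control counts and 4685, 4288 and 4584 HGF counts. The WD repeat proteins UTP4 and WDR43, which act in the early t-UTP part of the processome, rose by 0.52 and 0.50, and NOL6, of the UTP-C part, by 0.51. The other called members of this group, UTP15, UTP6, UTP18, WDR3, IMP4, NOP14, EMG1, RCL1 and UTP20, lay between 0.42 and 0.48. The 3 members that were not called were HEATR1 at 0.31, NAT10, the cytidine acetyltransferase of 18S ribosomal RNA, at 0.38, and IMP3 at 0.27. IMP3, a U3 snoRNP protein as is IMP4, had 2163, 2447 and 2421 control counts and 2911, 2770 and 2819 HGF counts, and its groups did not overlap either (SE 0.074, adjusted p = 0.0142).

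Of the 6 factors of late 40S maturation and export, 5 were called, against 6.16% of all genes tested. Among those called, RIOK1 is on the study's own list. BYSL, the bystin protein of the pre-40S particle, rose by 0.54 (SE 0.121, adjusted p = 0.00573), from 1573, 1736 and 2151 counts to 2718, 2509 and 2681. LTV1, RRP12, TSR1 and RIOK1 rose by 0.53, 0.48, 0.47 and 0.41. NOB1, the nuclease that makes the last cut of 18S ribosomal RNA, had 4050, 4401 and 4983 control counts and 6055, 5702 and 5915 HGF counts. It had the smallest response of this group and was separate between treatments (SE 0.0843, adjusted p = 0.00442).

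All 10 members of the 60S assembly and release group were called, with a median of 0.47, against 6.16% of all genes tested. Among them GTPBP4, GNL3, MDN1, EIF6 and SBDS are on the study's own list. BOP1, which forms a complex with PES1 and WDR12 that is needed to process the 60S precursor, rose by 0.68 (SE 0.104, adjusted p = 0.000821). It had 8221, 8673 and 11005 counts in Detroit 562 controls and 16473, 14204 and 14168 with HGF, a 1.61-fold difference. Its partners PES1 and WDR12 rose by 0.45 and 0.42. The GTPase GTPBP4 and SBDS, which with a GTPase evicts EIF6 from the new 60S subunit, rose by 0.51 and 0.52, and EIF6 itself by 0.43.

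GNL3, the nucleostemin protein, had the smallest response of the 60S group at 0.42 (SE 0.0987, adjusted p = 0.0074), with 4897, 5564 and 6673 control counts and 7048, 7605 and 8195 HGF counts. MDN1, the giant ATPase that remodels pre-60S particles, was called at the edge of the threshold, at 0.51 (SE 0.222, adjusted p = 0.0999). Its counts were 2157, 2363 and 3175 in controls and 2673, 3720 and 4602 with HGF, so that the lowest HGF library lay below the highest control. MDN1 remained past both limits in 6 of 18 fits that each left out 1 library, and its adjusted p in the blocked fit was 0.000493.

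POP1 and RPP25 are protein subunits that RNase P shares with RNase MRP, which cuts the ribosomal RNA precursor. Each was called higher in Detroit 562, as were 6.16% of all genes tested. Both are on the study's own list, which was picked on these same libraries. POP1 went from 2586, 2941 and 3497 to 4252, 4340 and 4753 counts and rose by 0.56 (SE 0.091, adjusted p = 0.00112). RPP25 went from 1056, 1041 and 1339 to 1612, 1456 and 1699 and rose by 0.47 (SE 0.102, adjusted p = 0.0046). For neither gene did the treatments overlap in this line.

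The abundant nucleolar proteins NPM1 and NCL, a chaperone of ribosomal proteins and an RNA-binding protein of the precursor, fell on opposite sides of the limit. NPM1 had 51115, 55339 and 64749 counts in Detroit 562 controls and 72794, 76773 and 82766 with HGF and rose by 0.44 (SE 0.106, adjusted p = 0.00798). NCL had 48604, 53468 and 59026 counts against 66082, 71092 and 70941, at 0.37 (SE 0.0783, adjusted p = 0.00432). For both genes every HGF library exceeded every control.

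**Figure D2:**
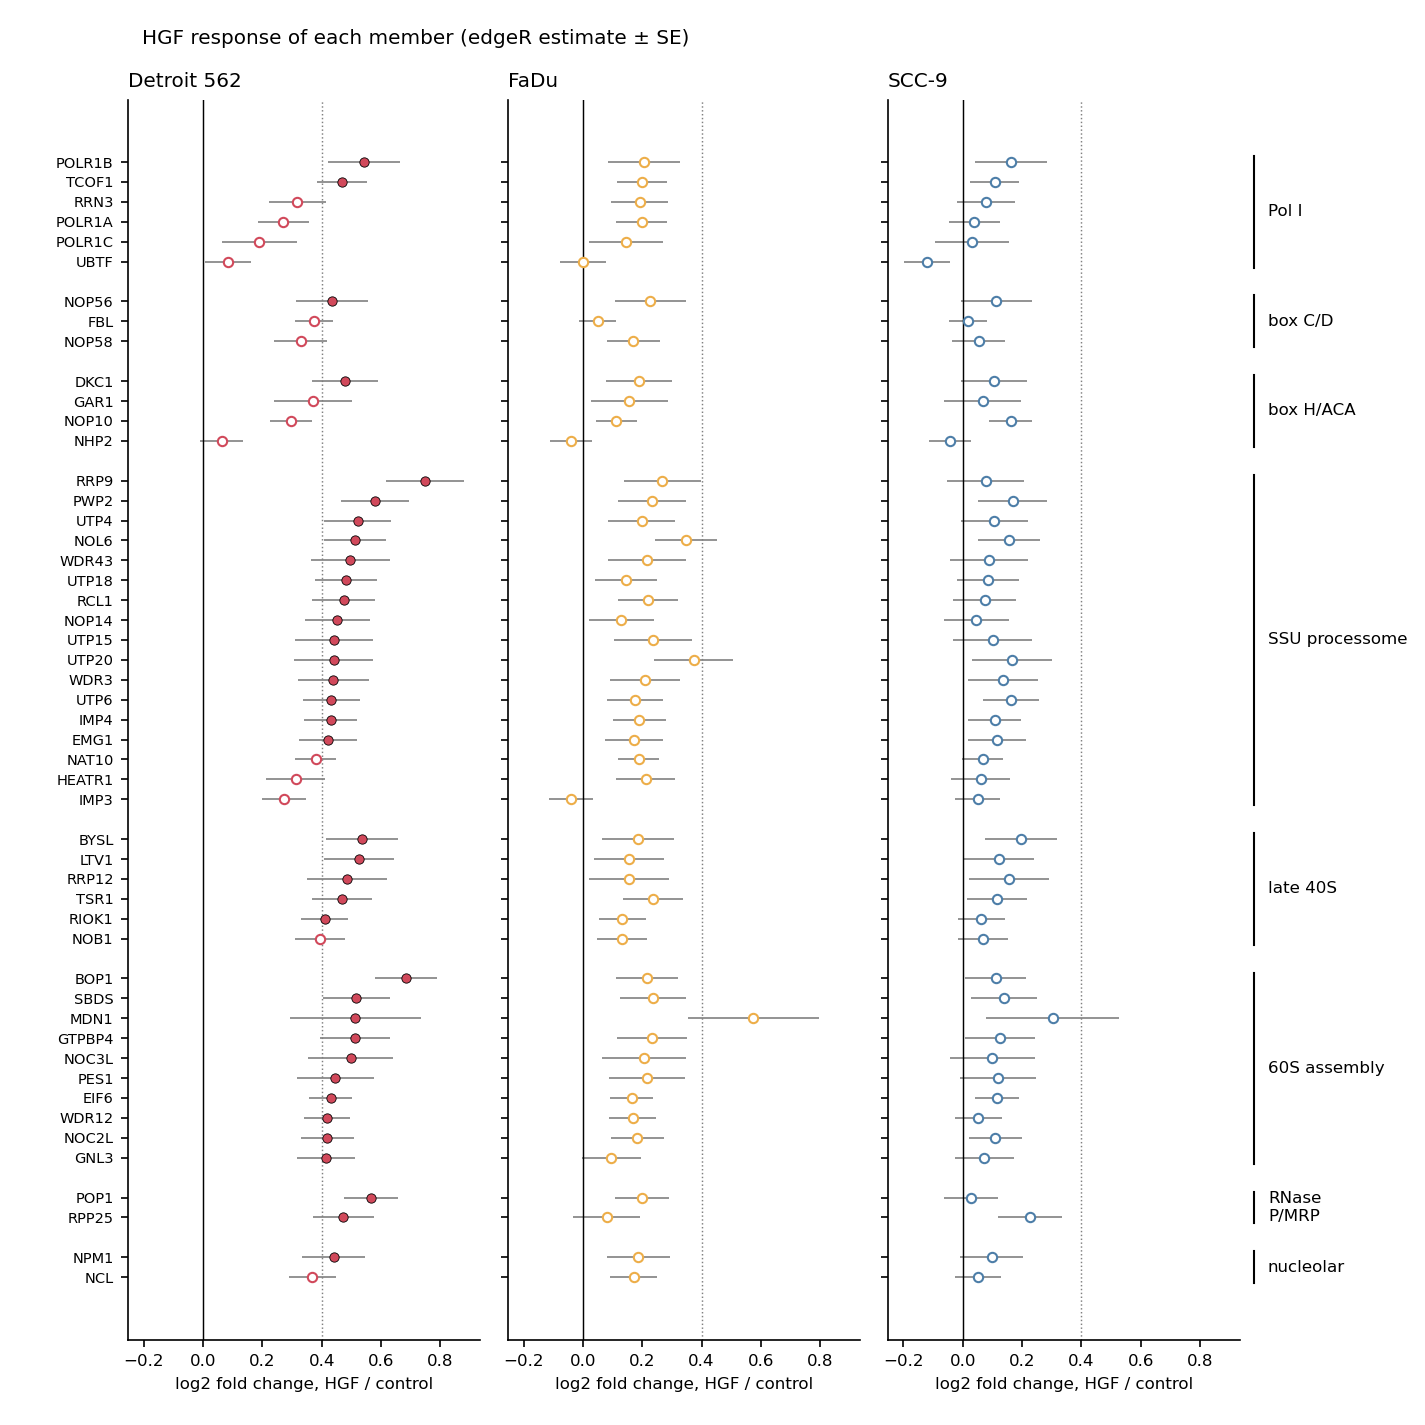
The log2 fold change of HGF against control (x axis) is drawn for each of the 50 members (y axis, by role group) with its standard error from edgeR, and filled points mark the called members. In Detroit 562 36 points are filled and all lie to the right of 0, and in FaDu and SCC-9 no point is filled.

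The Detroit 562 control libraries differed among themselves across the whole set. Control 3 was the highest control for 48 of 50 members and control 1 the lowest for 46, whereas control 3 was the highest for 41.3% of all genes tested. Together the members took 0.732% of all counts in control 1, 0.792% in control 2 and 0.904% in control 3, against 1.02%, 1.05% and 1.07% in the HGF libraries. The HGF libraries were thus above every control. Members were higher with HGF in 50, 50 and 49 of 50 cases in pairs 1, 2 and 3, with median log2 differences of 0.55, 0.45 and 0.34. For 43 of 50 members all HGF libraries lay above all controls, as they did for 18.1% of all genes tested.

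The count of calls moved with single libraries. Without control 1 it was 13 of 50, without HGF 3 it was 21, and without control 3 it was 43, while the median log2 fold change of the members was 0.37, 0.39 and 0.57. The median stayed positive in each of these fits, and the number of members past both limits did not hold. The share of all genes called in the same fits is not given. A change of the members in these counts therefore cannot be told apart from one of all genes.

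FaDu cells showed a smaller shift of the same sign. The median log2 fold change of the members was 0.19, and 47 of 50 were positive, while the median of all genes was 0.00. By edgeR 0 of 50 members were called higher, against 0.0258% of all genes tested with or without the limit of 0.4, and DESeq2 also called 0. At an unadjusted p below 0.05 there were 15 members by edgeR, for which no share of all genes is given. In the blocked fit MDN1 was called, against 2.0% of all genes, and 35 of 50 members passed the adjusted p alone, all higher with HGF, against 7.5% of all genes that were higher at that threshold.

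These 35 members had blocked log2 fold changes from 0.13 to 0.55. The 15 that did not pass included UBTF, FBL, NHP2, IMP3, BOP1 and GNL3, among which UBTF, NHP2 and IMP3 had estimates of 0 or below. MDN1 had 2970, 4256 and 4055 counts in FaDu controls and 3748, 6672 and 6390 with HGF. It was higher in each pair, although the lowest HGF library lay under the 2 higher controls, at 0.58 without the block (SE 0.221, adjusted p = 0.572) and at 0.55 with it (adjusted p = 0.0014). RRP9, the strongest member in Detroit 562, had 1449, 1344 and 1647 counts in FaDu controls and 1935, 1514 and 1896 with HGF, and UTP20, a processome scaffold, stood at 0.37 (blocked adjusted p = 0.0002).

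In FaDu, too, the libraries of 1 treatment differed across the set. Control 3 was the highest control for 45 members, and HGF 2 was the lowest HGF library for 41. Members were higher with HGF in 49, 47 and 44 of 50 cases in pairs 1, 2 and 3, and the medians were 0.31, 0.15 and 0.11. Only 6 members had HGF libraries that all lay above all controls, against 4.05% of all genes.

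In SCC-9 the shift was smaller again, with a median of 0.10 on the log2 scale against 0.00 for all genes, and 48 of 50 members were positive. By edgeR 0 members were called, against 0.0% of all genes higher, DESeq2 called 0 as well, and 1 member had an unadjusted p below 0.05. In the blocked fit 0 members were called, against 0.562% of all genes. With the adjusted p alone UTP6 and UTP20, both of the processome, passed in that fit at 0.16 each, against 1.83% of all genes.

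The SCC-9 libraries were closer to each other than those of the other lines, with 0.723% to 0.755% of counts on the members without HGF and 0.769% to 0.792% with it. For 21 of 50 members all HGF libraries lay above all controls, against 8.3% of all genes tested, and for UBTF and NHP2 they lay below. BYSL had 1771, 1627 and 1559 control counts and 1935, 1858 and 1892 HGF counts, and RPP25 311.7, 337.3 and 345.4 against 385.2, 388.2 and 390.8. These values were separate but small, at 0.20 and 0.23, and did not pass the adjusted test.

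**Figure D3:**
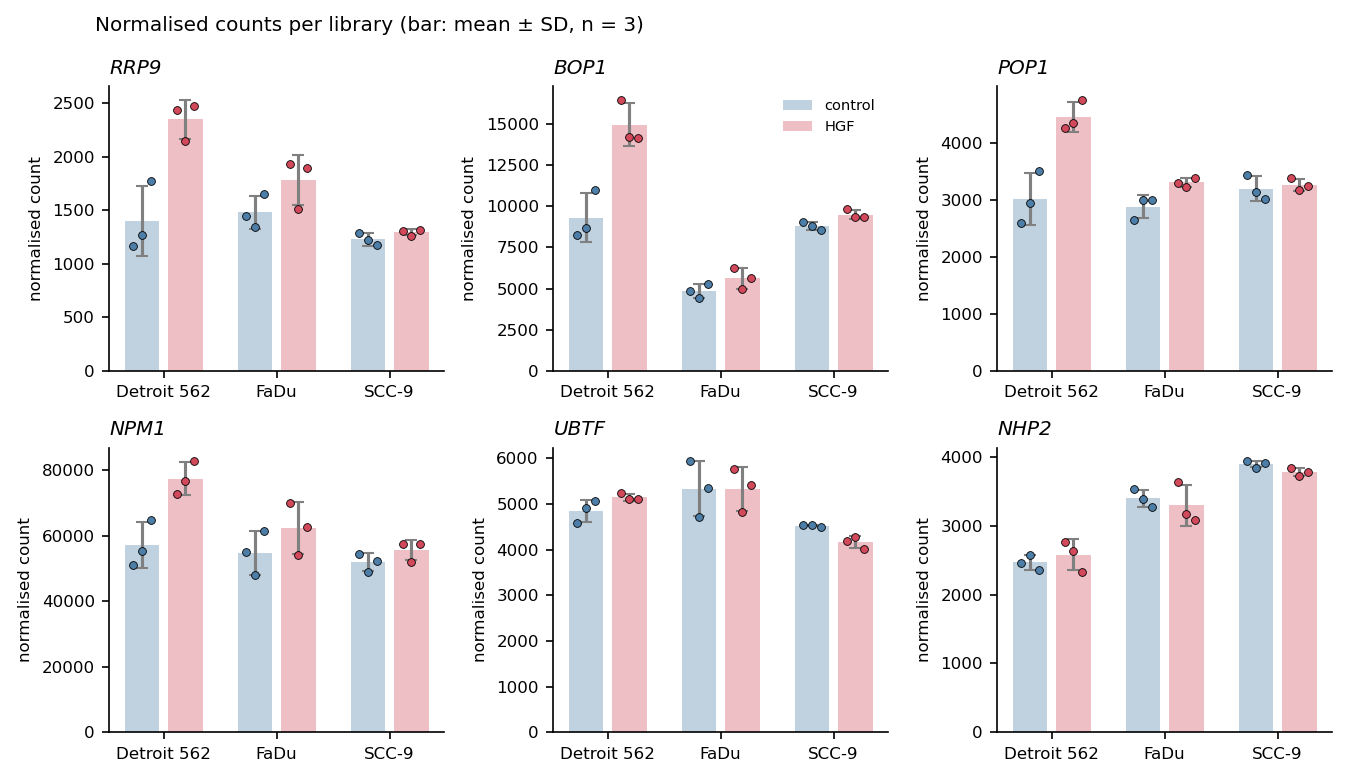
Normalised counts (y axis) of 6 members are shown for control (blue) and HGF (red) libraries of each line, with a point per library and bars for the mean ± SD of 3 libraries. RRP9, BOP1, POP1 and NPM1 are separate between treatments in Detroit 562, and UBTF and NHP2 were not called in any line.

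Whether the lines differed in their response was tested on the difference itself. The Detroit 562 estimate exceeded that of FaDu for 49 members and that of SCC-9 for 50, and FaDu exceeded SCC-9 for 45. Without the block, 0 members differed between Detroit 562 and FaDu by edgeR at an adjusted p below 0.1, against 0.239% of all genes. DESeq2 gave 1 member, against 1.85% of all genes with its prior. By edgeR 15 members had an unadjusted p below 0.05, for which no share of all genes is given. Between Detroit 562 and SCC-9 only POP1 differed by edgeR, against 0.924% of all genes, and DESeq2 gave 6 members, against 4.56%. Between FaDu and SCC-9 there were 0 by edgeR and by DESeq2, against 0.0% of all genes, and 0 at an unadjusted p below 0.05.

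The blocked fit gave other counts. In it 34 members had a larger response in Detroit 562 than in FaDu, against 19.1% of all genes that differed in either direction, and 45 a larger response than in SCC-9, against 26.9% of all genes. Between FaDu and SCC-9 it gave 0 members, against 1.32% of all genes, and 4 at an unadjusted p below 0.05. For RRP9 the difference between Detroit 562 and SCC-9 was 0.67 (SE 0.185, adjusted p = 0.138), with an adjusted p of 0.00146 in the blocked fit, and for BOP1 it was 0.57 (SE 0.146), with adjusted p = 0.109 and 0.00394.

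POP1 had 3432, 3135 and 3019 counts in SCC-9 controls and 3372, 3161 and 3232 with HGF, and the treatments overlapped. Its response was larger in Detroit 562 than in SCC-9 by 0.54 on the log2 scale (SE 0.128, adjusted p = 0.0959), with a blocked adjusted p of 0.000446. Without the block this call held in 4 of 18 fits that each left out 1 library. In FaDu POP1 had 2643, 2997 and 2997 counts without and 3300, 3222 and 3385 with HGF, which lay between the other lines in its estimate of 0.20.

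The responses of the members were also compared between lines, whose libraries are separate. Across the 50 genes, Pearson's r between the log2 fold changes was 0.551 when Detroit 562 was set against FaDu, 0.588 against SCC-9, and 0.644 between FaDu and SCC-9, with Spearman's rho of 0.561, 0.571 and 0.447. Over all genes tested r was 0.345, 0.239 and 0.168. The points are genes, which are not independent replicates and share their length and base composition between lines, and MDN1, UBTF and NHP2 lay near the ends in several comparisons.

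Other genes of the pathway and its neighbours were set beside the members in Detroit 562. Among 74 further assembly factors 31 were called higher and 0 lower, with a median of 0.37. Of 9 further RNA polymerase I genes 3 were called, with a median of 0.35, and of 10 RNA polymerase III genes 3, with a median of 0.31. Of 8 other proteins of RNase P and RNase MRP 0 were called higher, at a median of 0.20, against 6.16% of all genes tested. POP1 and RPP25 cannot serve as a contrast, since both are on the study's own list, picked as higher on these libraries. Conversely, any listed gene of the study's pathway that is absent from its list had already missed its thresholds on these libraries. The count of 0 among the 8 RNase P and RNase MRP proteins is therefore no independent result, and no conclusion is drawn from it.

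The proteins of the ribosome itself had lower medians than the genes that assemble it. Of 82 cytosolic ribosomal protein genes tested, out of 85 in the table, 1 was called higher (1.22%), with a median of 0.19. Of 77 mitochondrial ribosomal protein genes 1 was called higher (1.3%), with a median of 0.17. In Detroit 562 6.16% of all genes tested were called higher. In FaDu and SCC-9 0 genes of these 6 lists were called by edgeR, against 0.0258% and 0.0% of all genes tested. The medians there ran from 0.00 for cytosolic ribosomal proteins to 0.15 for other assembly factors in FaDu, and from 0.01 to 0.11 in SCC-9. No difference between lists was tested.

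**Figure D4:**
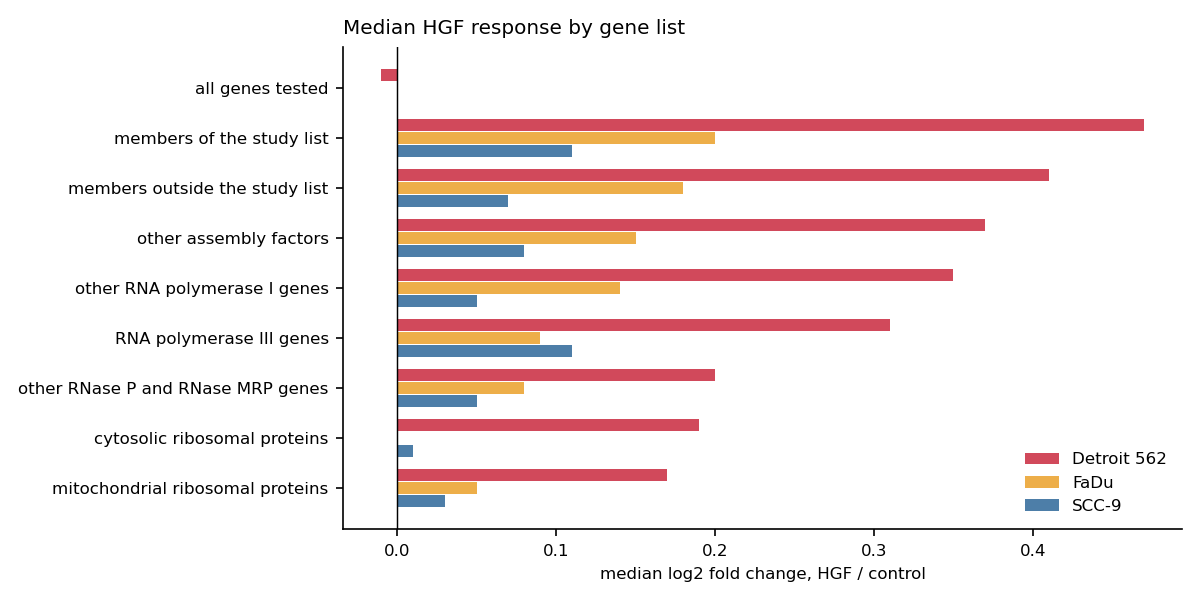
The median log2 fold change of HGF against control (x axis) is given for each gene list (y axis) in the 3 lines. In Detroit 562 the members on the study's list stand at 0.47, the members outside it at 0.41, other assembly factors at 0.37 and cytosolic ribosomal proteins at 0.19, while all genes stand at -0.01.

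In untreated cells fewer members differed between lines than the share of all genes that did. In either direction 18 of 50 were called for Detroit 562 against FaDu, 17 for Detroit 562 against SCC-9 and 22 for FaDu against SCC-9, beside 61.0%, 65.4% and 64.2% of all genes tested. FaDu had the highest control mean for 26 members, Detroit 562 for 17 and SCC-9 for 7. In Detroit 562 against FaDu 6 members were higher, against 31.2% of all genes, and 12 lower, against 29.8%. In Detroit 562 against SCC-9 12 members were higher, against 31.4%, and 5 lower, against 33.9%. In FaDu against SCC-9 18 members were higher, against 30.7%, and 4 lower, against 33.5%.

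Levels between genes were compared as normalised counts per kb of exon sequence. In untreated Detroit 562 cells NPM1 stood at 6866 and NCL at 6021 per kb, followed by EIF6 at 5569 and NAT10 at 5452, and MDN1 was lowest at 76.0. NPM1 and NCL were also the highest members in FaDu, at 6588 and 6445 per kb, and SCC-9 had NPM1 at 6247, EIF6 at 5517 and NCL at 5206.

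NAT10 (chr11:34105602-34147670) gave the largest difference between untreated lines. Its normalised counts were 25843, 28002 and 31642 in Detroit 562. In FaDu they were 4887, 4979 and 5579, and SCC-9 had 4872, 5011 and 4650. Detroit 562 was 5.53-fold above FaDu (log2 difference 2.47, SE 0.0725, adjusted p = 4.01e-14) and 5.88-fold above SCC-9 (2.56, SE 0.0727, adjusted p = 2.19e-14), while the difference of 0.09 between FaDu and SCC-9 did not pass (adjusted p = 0.259). The genes around NAT10 were also highest in Detroit 562, whereas FaDu and SCC-9 were not alike for all of them. Within 500 kb on either side 11 other genes were tested, and 11 were higher in Detroit 562 than in FaDu and 11 higher than in SCC-9, with median log2 differences of 3.49 and 2.88. CAPRIN1, next to NAT10 in this window, differed by 2.20 and 2.33, and KIAA1549L by 5.42 and 1.68. CD59 and RP4-541C22.8 gave the same values, 3.90 and 3.12, and may not be separate measurements. This window was examined after the value of NAT10 was seen.

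RCL1 (chr9:4792869-4885917), a processome protein required for early cleavage of the precursor, was highest in FaDu. It had 2978, 2912 and 3361 counts there, 832.6, 933.3 and 1061 in untreated Detroit 562 and 760.5, 798.4 and 703.1 in SCC-9. FaDu was 4.09-fold above SCC-9 (log2 difference 2.03, SE 0.107), and Detroit 562 lay below FaDu by a log2 difference of -1.71 (SE 0.106). Of 11 other genes tested within 500 kb, 8 were called in the same direction as RCL1 and 2 in the other for Detroit 562 against FaDu, and 8 and 1 for FaDu against SCC-9.

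BOP1, on chromosome 8, was lowest in FaDu, with 4846, 4423 and 5266 counts against 9019, 8815 and 8525 in untreated SCC-9 (log2 difference -0.86, SE 0.104, adjusted p = 1.09e-06), and the difference of 0.08 between Detroit 562 and SCC-9 did not pass (adjusted p = 0.481). Of 42 other genes tested within 500 kb of BOP1, 35 were also lower in FaDu than in SCC-9 and 1 was higher. NHP2 was lowest in Detroit 562, with 2463, 2574 and 2362 counts against 3931, 3842 and 3902 in SCC-9 (-0.66, SE 0.0718, adjusted p = 2.8e-07). Of 6 other genes near NHP2, 1 was called in the same direction and 1 in the other, so the neighbourhood of NHP2 did not share its difference.

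Among the remaining members RPP25 differed by 2.30 for Detroit 562 against FaDu and 1.79 against SCC-9 on the log2 scale, from 234.2, 240.7 and 221.2 counts in untreated FaDu. WDR3 and RRN3 were lower in Detroit 562 than in FaDu, at -1.43 and -1.30, and IMP4 was 1.15 and 1.13 higher in Detroit 562 than in FaDu and SCC-9. With HGF, NAT10 in Detroit 562 had 37097, 38413 and 35766 counts, all above the controls, at a log2 fold change of 0.38 (SE 0.0686, adjusted p = 0.00198) that passed the adjusted p and missed the limit of 0.4.

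**Figure D5:**
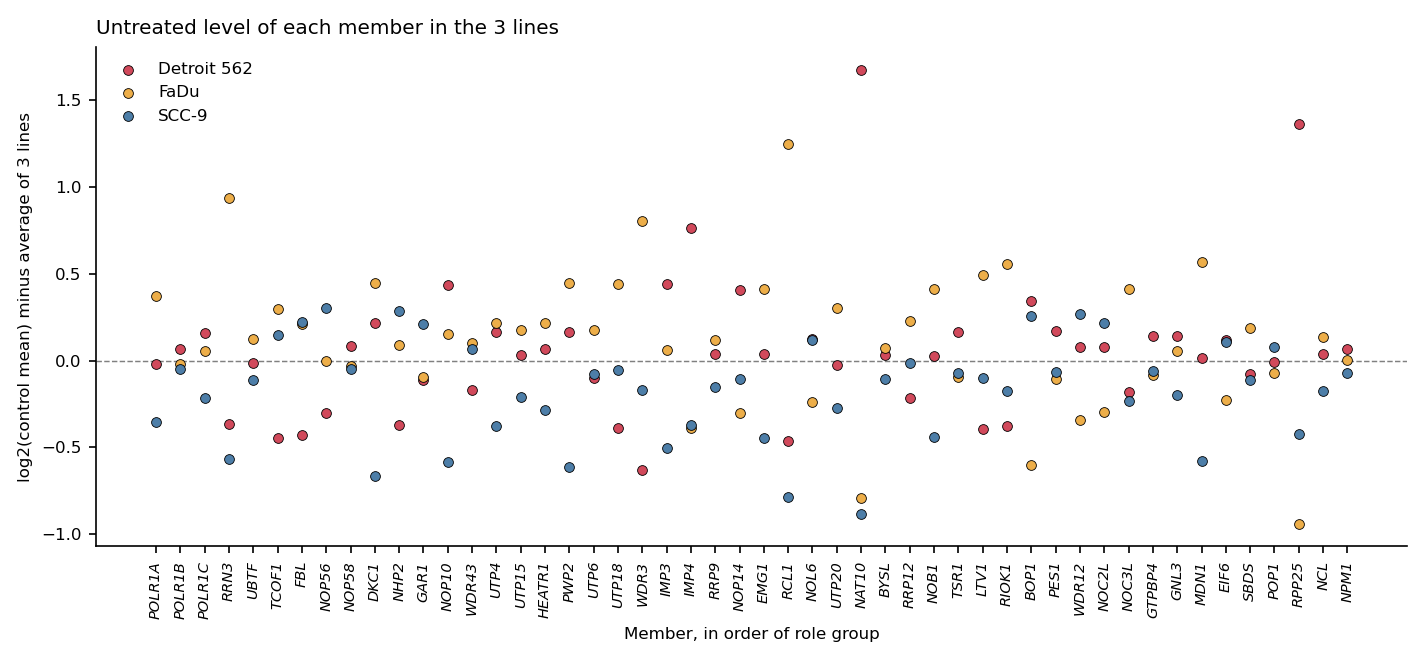
For each member (x axis) the y axis gives the log2 of the control mean in each line minus the average of the 3 lines. NAT10 and RPP25 stand out upward in Detroit 562 and RCL1 in FaDu, and the BOP1 level of FaDu lies below those of the other lines.

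Some counts may hold reads of other genes on the same strand. UTP4 overlaps SNTB2 over 44002 bases, and EMG1, LTV1 and EIF6 overlap unnamed transcripts whose mean counts were 1.02, 0.807 and 0.657 of their own, LTV1 also a further one at 0.394. The share of reads counted for both genes was not tested.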

How the data were processed

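Messenger RNA libraries were prepared with a stranded kit. Per the labels and the methods of the study, the authors trimmed reads with Cutadapt (1.16 in the submitters' processing notes, 1 further version in the methods), aligned them to GRCh38.p12 with STAR 2.5.2b and counted them per gene and by strand with BEDTools. The deposited table holds raw counts, with no normalization, and 0 columns of other samples. Members and gene lists were chosen with earlier results of these data known. Genes were filtered with filterByExpr and scaled by TMM, and edgeR 4.0.16 (R 4.3.3) fitted 1 mean per line and treatment over all 18 libraries, with a quasi-likelihood test and Benjamini-Hochberg adjustment. SE denotes its standard error. The pipeline was tested on simulated data. Same-numbered control and HGF libraries deviated together in every line (Pearson's r of deviations across genes 0.116 to 0.511, and -0.434 to 0.186 between different numbers, where Detroit 562 control 1 with HGF 2 exceeded the pair numbered 2), so replicate number within each line was taken as pairing and printed as the blocked fit. The study states repeats of the experiment but not separate cultures by number. P-values measure the spread between these libraries. DESeq2 1.42.0 and other alternatives are covered after the report. Values per library are given for the members of each role group with the highest and lowest Detroit 562 response, those called in FaDu or SCC-9 or differing in response, and the extremes between untreated lines. Exon lengths came from GENCODE 44.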

Additional observations from a re-analysis of the deposited data

Results flagged for a closer look

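POP1 was singled out because its HGF response differed between Detroit 562 and SCC-9 in a test of the difference itself. The difference was 0.54 on the log2 scale (SE 0.128, adjusted p = 0.0959 in edgeR). POP1 was the only 1 of the 50 members called by edgeR without the replicate block, against 0.924% of all genes. DESeq2 called 6 members, against 4.56% of all genes. The POP1 call by edgeR stood near the limit of 0.1. It held in 4 of 18 fits that each left out 1 library, with adjusted p from 0.00859 to 0.261 and a difference from 0.44 to 0.66, and with the block its adjusted p was 0.000446.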

How the results depend on the processing

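The median log2 fold change of the members in Detroit 562 ranged from 0.37 to 0.57 when 1 library was left out, and the number called ranged from 13 (without control 1) to 43 (without control 3). Under a stricter threshold, adjusted p 0.05 with a minimum log2 change of 1, it was 0. The replicate block, which pairs same-numbered libraries, gave 1 called member in FaDu, 34 that differed in response between Detroit 562 and FaDu and 45 between Detroit 562 and SCC-9. With the block and no minimum fold change, an alternative added after seeing the data, 35 members passed in FaDu and 2 in SCC-9. The block moved no other count of called members by over 1.5 times. Members at an unadjusted p below 0.05 went with it from 15 to 43 in FaDu, from 1 to 16 in SCC-9, from 15 to 40 for the response of Detroit 562 against FaDu and from 0 to 4 for that of FaDu against SCC-9. For Detroit 562 against FaDu, DESeq2 gave 1 differing member with and without a prior, against 1.85% and 1.79% of all genes. Leaving out 1 library gave 0 to 8. For Detroit 562 against SCC-9, DESeq2 gave 6 either way, against 4.56% of all genes. A filter of at least 50 counts in 3 libraries gave 3, and the stricter threshold gave 0. Leaving out 1 library gave 0 to 28 for this comparison, the highest without Detroit 562 control 3. In untreated cells, calls without a minimum fold change were 35, 30 and 35 for Detroit 562 against FaDu, Detroit 562 against SCC-9 and FaDu against SCC-9, and 6, 4 and 5 at the stricter threshold. The cause of these differences was not tested beyond the fewer libraries or the other threshold. Counts without 1 library, at other thresholds or at an unadjusted p have no share of all genes beside them here. They are therefore not read as particular to the members. Among single named members under all alternatives, 1378 values kept their side of the threshold, 16 passed it newly, 10 no longer passed it, and 0 reversed. The 3 libraries per group limit the precision of these values.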
